A study of Rattus norvegicus with 24 samples.

Results

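The nuclear genes of the oxidative phosphorylation system were examined in 2 stress-related regions of the rat brain. They were taken by name from the deposited count table, as protein-coding rows outside the mitochondrial chromosome whose symbol marks a subunit of complex I (the Nduf names), complex II (Sdha to Sdhd), complex III (the Uqcr names), complex IV (Cox4 to Cox8) or complex V (the Atp5 names). The rule found 89 of 35032 rows with 85 distinct symbols. Of these, 36 rows belonged to complex I, 4 to complex II, 9 to complex III, 22 to complex IV and 18 to complex V. Ndufa4 and Ndufa4l2 were counted with complex IV, of which the Ndufa4 protein is a subunit.

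Oxidative phosphorylation makes most of the ATP that neurons spend on ion pumping and transmission. Complexes I and II feed electrons from NADH and succinate to ubiquinone, complex III passes them to cytochrome c, and complex IV hands them to oxygen. Complexes I, III and IV pump protons, and ATP synthase (complex V) uses the gradient. A small number of core subunits are encoded by the mitochondrial genome, and nuclear genes, most of which are described here, supply the rest, all of complex II included.

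Tissue of male Sprague-Dawley rats, 7 weeks old at purchase, came from the hypothalamic paraventricular nucleus (PVN), whose neurons start the hormonal stress response, and from the central amygdala (CEA). Each region had 4 treatment groups of 3 libraries, 24 in all: NC, unoperated normal controls; HT, rats with a partial hepatectomy that removed about 20% of the left liver lobe; EA, hepatectomy plus electroacupuncture at ST36 and SP6; and SEA, hepatectomy plus sham needling without current. All groups were restrained in the same way, and tissue was taken 24 h after the last stimulation. The methods state that, as 1 rat yielded little tissue, brain samples came from different animals of 1 batch, without naming regions or assays, yet they describe fewer rats than there are libraries. In dissected tissue a change in cell make-up and a change in RNA per cell cannot be told apart.

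Several libraries stood apart before any member was compared. Counts assigned to genes totalled 13152772 to 18607032 per library. The 89 rows took 1.58% and 1.55% of the counts in PVN NC 1 and PVN NC 3 and 1.25% to 1.37% in the other PVN libraries, and 1.98% in CEA HT 2 against 1.27% to 1.53% in the other CEA libraries. In CEA EA 2, rows of the mitochondrial chromosome took 3.80% of the counts, where the other CEA libraries had 10.1% to 14.4%. The region labels held for markers: the summed level of 6 PVN markers (among them Avp, Oxt and Crh) was 417 to 1333 CPM (counts scaled to a common library size) in PVN and 34.8 to 181 in CEA, and that of 5 CEA markers was 283 to 364 in PVN and 1198 to 2115 in CEA. Choroid plexus markers, 6.66 to 25.2 CPM in sum elsewhere, reached 373 to 1778 in CEA NC 2, CEA EA 1 and CEA SEA 2.

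Promoter sequence is shown first, because genes of all 5 complexes are known targets of a few shared factors: NRF1, the ETS factor GABPA and YY1. RefSeq promoters of 300 bases on GRCr8 (250 before to 50 after the start) could be matched for 73 of the 89 rows, 71 by symbol and 2 by an older symbol. On either strand, the NRF1 letters GCGCANGCG stood in 17 of 73 member promoters (23.3%) against 5.80% of all 33469 promoters, the ETS letters CCGGAAG in 20 (27.4%) against 8.75%, and the YY1 letters AAGATGGC in 15 (20.5%) against 3.17%. Over the 21851 promoters of protein-coding genes the shares were 7.62%, 10.7% and 3.67%. At least 1 of the 3 motifs was present in 42 member promoters (57.5%), beside 15.7% of all promoters and 19.4% of protein-coding ones. No matches of different motifs overlapped. By complex, the share with any motif was lowest for complex IV (5 of 16) and highest for complex II (4 of 4). These are matches of letters and do not show binding. No entry was matched for 16 rows, Uqcr11, Cox6a1 and Ndufb9 among them.

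Stretches from 150 bases before to 30 after the start are given for 4 members whose levels differed between the regions, 3 higher and 1 lower in CEA, 5′ to 3′ on the gene's strand, with motif matches in capitals. Cox8a (chr1:213833594-213833773, minus strand) held 2 ETS matches and 1 YY1 match, all on the opposite strand. Atp5f1e (chr3:183680143-183680322, minus strand) held none. Sdhd (chr8:59850612-59850791, minus strand) held 2 ETS matches, and Sdha (chr1:30764403-30764582, plus strand) held 3 NRF1 matches.
Cox8a: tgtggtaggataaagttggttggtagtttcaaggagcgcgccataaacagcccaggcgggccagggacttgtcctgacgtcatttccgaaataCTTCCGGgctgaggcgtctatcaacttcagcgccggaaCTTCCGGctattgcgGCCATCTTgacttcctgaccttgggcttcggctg
Atp5f1e: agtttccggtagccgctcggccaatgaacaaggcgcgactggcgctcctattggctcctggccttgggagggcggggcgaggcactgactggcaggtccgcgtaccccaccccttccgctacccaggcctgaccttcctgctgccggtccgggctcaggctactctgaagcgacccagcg
Sdhd: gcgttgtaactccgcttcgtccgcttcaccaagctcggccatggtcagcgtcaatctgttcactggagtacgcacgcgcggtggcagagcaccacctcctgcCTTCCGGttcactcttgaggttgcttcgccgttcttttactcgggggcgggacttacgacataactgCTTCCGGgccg
Sdha: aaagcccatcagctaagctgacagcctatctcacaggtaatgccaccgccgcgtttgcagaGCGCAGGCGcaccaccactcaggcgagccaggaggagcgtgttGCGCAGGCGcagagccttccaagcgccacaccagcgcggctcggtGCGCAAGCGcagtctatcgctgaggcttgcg
Of the 28 matched members that were higher in CEA, 13 (46.4%) held any of the 3 motifs, and of the 41 that were tested and not higher, 29 (70.7%) did. Complex IV had the lowest motif share and the largest share of members higher in CEA. Motif and complex therefore cannot be told apart in these counts, which were not tested.

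Nearly all members were expressed in both regions. In a fit of all 24 libraries 83 of 89 passed the filter on low counts. The 6 that failed were Cox7a1 (6 counts over all libraries), Cox7b2 (45), Cox8b (72), and 3 rows with 0 counts, Cox8c, Cox6c-ps1 and the Ndufa10l1 row on chromosome 6. Cox7a1 and Cox8b are the heart and muscle isoforms of their subunits. No row carries the symbol Cox7a2, the ubiquitous partner of Cox7a1. A row with the symbol Cox7a2l2, described as subunit VIIa polypeptide 2-like 2, held 51451 counts. Its medians were 105 CPM in PVN and 163 CPM in CEA, and its description does not say whether it is the ubiquitous form.

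Levels can be compared between genes only per length, and here CPM was divided by the exon length in kilobases. The highest medians in PVN were those of Atp5md, a small membrane subunit of ATP synthase (904 ± 117 CPM per kb, SD, n = 12), Cox6a1, the liver-type subunit 6a that the brain also uses (831 ± 82.2), and Atp5f1b, the catalytic beta subunit of ATP synthase (713 ± 29.9). In CEA the same 3 genes had the highest medians, with Cox6a1 at 1257 ± 308, Atp5md at 1210 ± 193 and Atp5f1b at 896 ± 95.5 CPM per kb. Cox6a1 and Atp5md differed by less than either SD in both regions, so their order is not resolved. In PVN, Cox4i1 (558 ± 84.0), Cox8a (548 ± 44.5) and Cox7c (544 ± 51.1) came next, and in CEA Cox7c (862 ± 143) and Cox8a (829 ± 110), each within the SD of its neighbours in that run. In CEA, Cox7c and Cox8a also lay within the SD of Atp5f1b, so the place of Atp5f1b is not resolved there. The genes below the 3 highest medians were chosen with their values known.

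In the comparison of CEA with PVN over all treatments, the members lay mostly higher in CEA. By edgeR's quasi-likelihood test (adjusted p under 0.05, Benjamini-Hochberg over 17768 genes), 36 of 83 members were higher in CEA and 1 was lower. The regions differ in much of the transcriptome, since 56.6% of all genes tested were called in this fit, 27.1% higher and 29.6% lower in CEA. The members' share of calls was therefore no higher than that of other genes, but its split was 36 to 1, and the median log2 fold change was 0.19 over the members against -0.01 over all genes. The difference was positive in 73 of 83 members and in 49.0% of all genes.

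**Figure D1:**
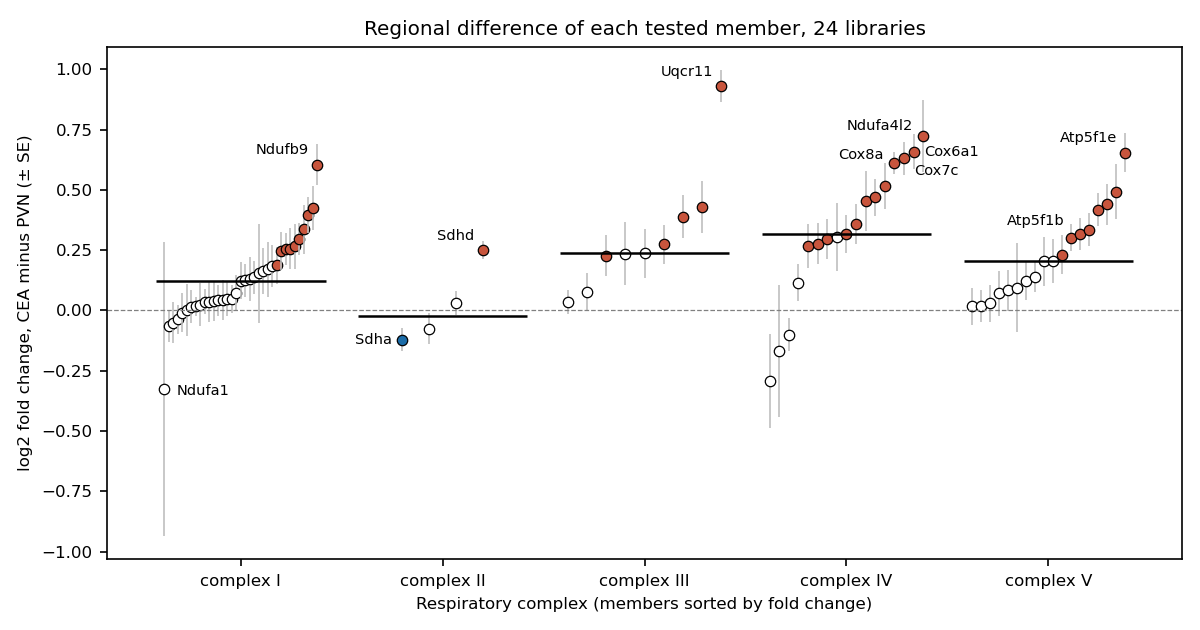
Each point is 1 of the 83 tested members, with its log2 fold change of CEA minus PVN and standard error on the y axis and the members of each complex sorted along the x axis. Red points were higher and the blue point lower in CEA at an adjusted p under 0.05, white points were not called, and black bars are the medians of each complex, from -0.02 in complex II to 0.32 in complex IV.

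Calls by complex are given as counts, beside 27.1% of all genes called higher, and the difference between complexes was not tested. Complex IV had the highest median, 0.32, with 12 of 17 tested members higher in CEA. It was followed by complex III (median 0.24, 5 of 9 higher), complex V (0.20, 8 of 18) and complex I (0.12, 10 of 35), whose share was close to that of all genes. Complex II, the succinate dehydrogenase of the citric acid cycle, stood apart with a median of -0.02, 1 member higher (Sdhd) and 1 lower (Sdha).

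In complex III, the largest difference of all members was that of Uqcr11, a small subunit of the cytochrome bc1 complex. It lay at 177 to 261 CPM in the 12 PVN libraries (median 200.4) and at 295 to 596 in the 12 CEA libraries (median 391), so the regions did not overlap. The log2 fold change was 0.93 ± 0.07 (SE, adjusted p = 2.7e-10, edgeR). Every CEA library lay above every PVN library in only 2 members, Uqcr11 and Cox8a, beside 6.46% of all genes tested. The remaining small subunits called were Uqcrb on chromosome 7 (0.39), Uqcr10 (0.43) and Uqcrh (0.27), and among the larger subunits the Rieske iron-sulphur protein Uqcrfs1 was called (0.23), while the core proteins Uqcrc1 (0.08) and Uqcrc2 (0.03) were not.

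In complex IV the 12 called members were all higher in CEA. Cox8a, the ubiquitous isoform of subunit 8, had 249 to 319 CPM in PVN (median 271) and 340 to 515 in CEA (median 411), a log2 difference of 0.61 ± 0.05 (adjusted p = 7.1e-10, edgeR). Cox7c, which has a single isoform, rose from 224 to 310 CPM in PVN (median 258) to 272 to 525 in CEA (median 409), with a log2 difference of 0.63 ± 0.07, and 1 library, CEA EA 2, reached into the PVN range. Cox6a1 had 411 to 573 CPM in PVN (median 456) and 545 to 1172 in CEA (median 690), with a log2 difference of 0.66 ± 0.07, and again only CEA EA 2 fell within the PVN range.

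Among paralogous isoforms, abundant and rare members of a pair could both differ. Cox4i1 (0.36 ± 0.08, adjusted p = 0.0011) and its hypoxia-linked partner Cox4i2 (0.45 ± 0.13, adjusted p = 0.0042) were both higher in CEA by edgeR, at medians of 408 against 520 CPM and 2.14 against 2.98 CPM. Ndufa4 (0.28 ± 0.09) and Ndufa4l2 (0.72 ± 0.15) were both called as well, at 229 against 295 CPM and 3.97 against 6.61 CPM. Cox6a2 and Cox6b2, the muscle and testis isoforms of their subunits, had medians of 1.08 and 1.97 CPM in PVN and 0.764 and 1.59 CPM in CEA, with log2 differences of -0.17 ± 0.28 and -0.29 ± 0.20 that were not called, and without CEA HT 2 that of Cox6a2 was -0.41 (-0.04 without PVN NC 1). Cox6b1 was called in both of its rows, 0.32 ± 0.08 on chromosome 1 and 0.30 ± 0.08 on chromosome 2, and Cox7b by 0.27 ± 0.09, whereas Cox7a2l, a relative of subunit 7a that joins complexes III and IV, was not called (-0.10 ± 0.07). Without CEA HT 2 it was called lower (-0.16, adjusted p = 0.019, edgeR), and without CEA HT 1 it was at -0.05. Of the 3 genes for the c subunit of the ATP synthase ring, whose mature products are identical, Atp5mc1 was higher in CEA (0.33 ± 0.07, adjusted p = 0.00033 by edgeR), whereas Atp5mc3 (0.12 ± 0.08) and Atp5mc2 (0.07 ± 0.09) were not called. With scaling by library totals alone the latter 2 turned to -0.01 and -0.07. Without CEA HT 1 Atp5mc3 was called (0.17, adjusted p = 0.048, edgeR), and without CEA HT 2 it was at 0.08, while Atp5mc2 ran from 0.02 without CEA EA 3 to 0.13 without CEA EA 2.

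**Figure D2:**
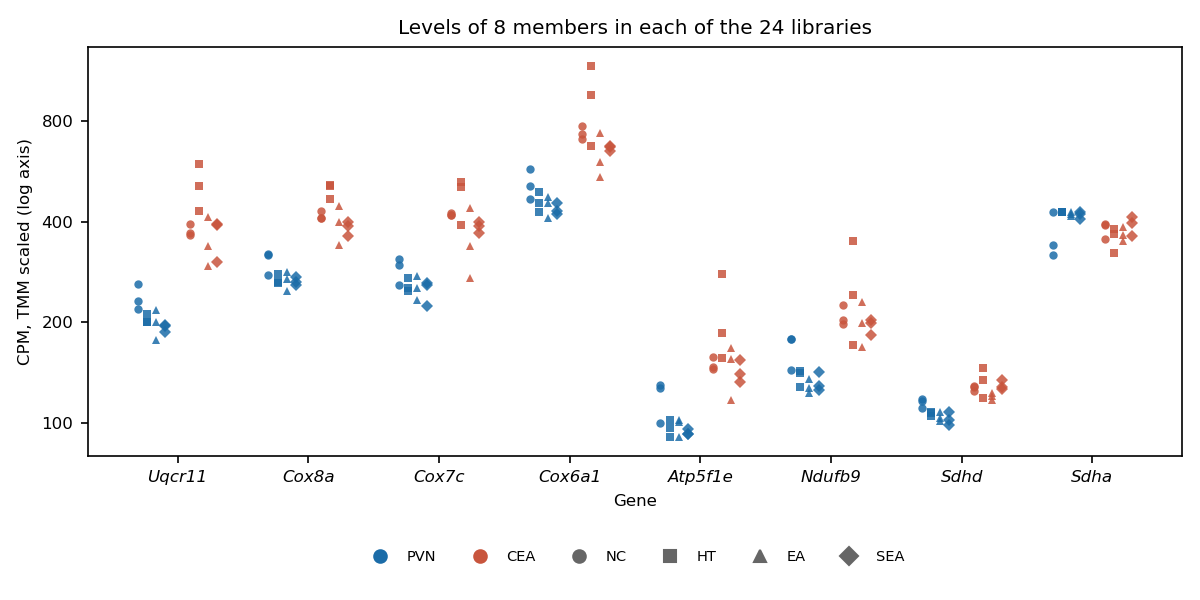
The level in CPM (log axis) of 8 members in each of the 24 libraries, with PVN in blue and CEA in red and the treatment given by the symbol. Uqcr11 and Cox8a do not overlap between the regions, and Sdha overlaps, with PVN NC 1 and PVN NC 3 at the bottom of its PVN values.

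In complex V, Atp5f1e, the epsilon subunit of the F1 head, went from 90.9 to 130 CPM in PVN (median 98.7) to 117 to 279 in CEA (median 155). Its log2 difference was 0.65 ± 0.08 (adjusted p = 6.8e-07, edgeR). Atp5f1b, at 1203 to 1390 CPM in PVN and 1294 to 1883 in CEA, differed by 0.30 ± 0.05, and Atp5f1d by 0.44 ± 0.08, so that 3 of the 5 F1 subunits were called. The alpha subunit Atp5f1a had medians of 711 and 713 CPM and a log2 difference of 0.02. Of the small membrane subunits, 3 of 4 were higher in CEA, Atp5md by 0.42 ± 0.07, Atp5me by 0.49 and Atp5mg by 0.32, against 1 of 4 of the peripheral stalk, Atp5pf (0.23).

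In complex I, 2 of the 7 conserved core subunits that carry its redox centres were higher in CEA, Ndufs3 (0.40 ± 0.08) and Ndufv1 (0.25 ± 0.07), and 8 of the 28 tested accessory rows were, shares close to the 27.1% of all genes. The accessory subunit Ndufb9 rose from 123 to 178 CPM in PVN (median 138) to 169 to 351 in CEA (median 201), with a log2 difference of 0.60 ± 0.08 (adjusted p = 4.2e-06, edgeR). CEA EA 1 and CEA HT 1, at 169 and 172 CPM, lay below the PVN maximum of 178, which PVN NC 1 and PVN NC 3 set. Ndufa6, another accessory subunit, differed by 0.42 ± 0.09. The groups of core, accessory, F1, membrane and stalk subunits were formed with the values known and are given as a description.

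Complex II split. Sdhd, a membrane anchor, had 98.6 to 118 CPM in PVN (median 107) and 117 to 147 in CEA (median 127), and its log2 difference was 0.25 ± 0.04 (adjusted p = 9.3e-06, edgeR). Sdha, the flavoprotein that oxidises succinate, had 318 to 428 CPM in PVN (median 424) and 323 to 412 in CEA (median 375), a log2 difference of -0.12 ± 0.05 (adjusted p = 0.037, edgeR). In PVN, 10 of its 12 values were between 409 and 428 and those of PVN NC 1 and PVN NC 3 were 341 and 318 in libraries where most members were high. The call for Sdha was lost when any of 13 of the 24 libraries was left out, and in the NC libraries alone the value was 0.07.

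The regional difference was not even across treatments. Within NC the median log2 difference of CEA minus PVN was 0.02, and 43 of 83 members were positive. Within HT it was 0.37 (74 positive), within EA 0.09 (57) and within SEA 0.21 (77). In a fit of the 6 NC libraries alone, 4 members were higher in CEA (Uqcr11, Cox8a, Cox7c and Cox6a1) and 1 was lower, Cox7a2l (26.4% of all genes were called there in either direction). With the replicate number as a block the 4 were called and Cox7a2l was not (-0.31, adjusted p = 0.069, edgeR), with 27.5% of all genes called. In the 18 libraries of operated rats, 47 were higher, all of the 36 included, and Sdha lower, with 51.9% of all genes called. The NC controls hold both high PVN libraries: their summed member level was 14923 and 15121 CPM in PVN NC 1 and 3 and 12492 in PVN NC 2, against 15058 to 15106 in the 3 CEA NC libraries. Without PVN NC 1, PVN NC 3, CEA HT 2 and CEA EA 2, 52 members were higher in CEA and 1 was lower (56.8% of all genes called), with a median of 0.20. Leaving out CEA HT 2 alone brought the median over all treatments from 0.19 to 0.11, the lowest value of any single omission.

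Scaling moved this result. With library totals alone in place of TMM, the split changed from 36 higher and 1 lower to 24 higher and 7 lower, beside 18.8% of all genes higher and 41.3% lower under that scaling, and the medians fell to 0.05 over the members and -0.15 over all genes. The median over all genes itself thus moved from -0.01 to -0.15, so that only differences from it can be read across scalings. The 7 lower rows were Cox7a2l, Ndufc2, Ndufs1, Ndufs4, Sdha, Sdhb and the Ndufv3 row on chromosome 20.

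Other gene lists are given beside the 27.1% of all genes called higher and 29.6% called lower in CEA. All 13 mRNAs of the mitochondrial genome were higher in CEA, with a median log2 difference of 0.77, and their summed level was 61047 to 73632 CPM in PVN and 93139 to 137747 in CEA except for 28828 in CEA EA 2. Of 86 cytosolic ribosomal protein genes tested, 25 were higher and 3 lower (median 0.17), and of 73 mitochondrial ribosomal protein genes 18 were higher and 10 lower (0.04). Assembly factors of the complexes had 9 higher and 6 lower of 38 (median 0.04), and genes of pyruvate dehydrogenase and the citric acid cycle had 2 higher of 14 (median 0.01). Glycolytic genes had 1 higher and 4 lower of 16 and a median of -0.10. Among 12 regulators of mitochondrial biogenesis, such as Ppargc1a, Nrf1 and Tfam, 6 were higher and 1 lower (0.16). Of 9 mitochondrial membrane transport genes 1 was higher and 3 were lower (0.02), and of 6 subunits and carriers outside the name rule, such as Cycs and Cyc1, 2 were higher (0.10).

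Cell type markers also differed between the regions. The summed level of 5 oligodendrocyte markers was 9208 to 15561 CPM in PVN and 24647 to 41132 in CEA, and all 5 were called higher. All 5 microglial markers were called higher as well, with summed levels of 140 to 208 and 199 to 306 CPM, as were all 5 of striatal projection neurons, at 114 to 228 and 1534 to 4691 CPM. Summed neuronal markers overlapped at 3077 to 3592 and 2540 to 4222 CPM (4 of 7 higher and 2 lower), as did those of astrocytes at 2047 to 2781 and 1838 to 3035 CPM (1 of 5 higher and 2 lower). Cortical and hippocampal excitatory neuron markers had 4.43 to 24.4 CPM in PVN and 8.82 to 334 in CEA (1 of 4 higher), and endothelial markers 109 to 165 and 132 to 286 CPM (both tested markers higher). Blood markers had 511 to 1334 and 731 to 1487 CPM (2 of 4 higher), and markers of muscle and brown fat 16.1 to 24.1 and 12.4 to 30.1 CPM (1 of 2 tested higher). The part of cell make-up in the members' difference was not tested.

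Members are short transcripts. The median exon length of the 83 tested members was 704 bases, with 57 under 1000 bases (68.7%), against 2362.5 bases and 10.7% for all tested protein-coding genes. In the regional comparison, members under 1000 bases had a median of 0.23, while the 1572 other protein-coding genes of that length had 0.03, and members of 1000 to 3000 bases had 0.08 against -0.02 in 8167 others. In both length classes the members' median was above that of the other genes, which was not tested.

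In the PVN, the question was whether hepatectomy changed these genes and whether electroacupuncture changed them back. Comparing HT with NC, edgeR called 0 of 83 members at an adjusted p under 0.05 (0.0120% of all genes called) and DESeq2 also 0 (0.173%). At an unadjusted p under 0.05 edgeR gave 24 members lower and 0 higher in HT, beside 5.35% of all genes lower and 5.69% higher. The median log2 fold change of the members was -0.22 against -0.01 over all genes, and 73 of 83 were negative. Markers of cell types moved in the same comparison: 3 of 6 PVN markers were lower in HT at an unadjusted p under 0.05 and 0 at an adjusted one, with summed levels of 1003 to 1333 CPM in NC and 417 to 954 in HT. Of 5 astrocyte markers, 2 were lower at the unadjusted threshold, Gfap lying at 419 to 508 CPM in NC and 225 to 305 in HT, with summed levels of 2233 to 2781 and 2047 to 2381 CPM. Neuronal markers went both ways. Nefl lay at 364 to 425 CPM in NC and 431 to 495 in HT, and Tubb3 at 530 to 680 and 475 to 557 CPM. The part of cell type markers in the members' values was not tested. The 3 members with the smallest p were Ndufb7 and Ndufb2, accessory subunits of complex I, and Uqcrq, a small subunit of complex III, at -0.38 ± 0.12, -0.34 ± 0.11 and -0.38 ± 0.12 (adjusted p = 0.42 for each, edgeR).

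Of the 3 control libraries, 2 were higher than the third in these members. Uqcrq had 277, 207 and 283 CPM in PVN NC 1 to 3 and 194, 206 and 190 CPM in the 3 HT libraries. Ndufb7 had 110.0, 84.2 and 110 CPM in NC and 77.9, 80.4 and 75.0 CPM in HT. In both genes PVN NC 2 lay just above the HT libraries, and PVN NC 1 and PVN NC 3 lay far above it. Without PVN NC 2 the median over the members was -0.34, and 51 were lower and 1 higher in HT at an adjusted p under 0.05, with 20.2% of all genes called. With PVN NC 2 as the only control, a choice made with its values known, the median of the members was 0.00, given as a value without a test.

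Read per library, PVN NC 1 and PVN NC 3 were high across the complexes. Relative to the median of the 12 PVN libraries on the log2 scale, the members' median was 0.34 in PVN NC 1 (77 of 83 above) and 0.32 in PVN NC 3 (80 above), -0.00 in PVN NC 2 (39 above) and between -0.11 and 0.05 in the 9 libraries of operated rats. Complexes I, III, IV and V were raised by 0.34 to 0.36 in PVN NC 1 and by 0.20 to 0.38 in PVN NC 3, and complex II by 0.13 and 0.16. Cytosolic ribosomal protein genes (0.35 and 0.32) and mitochondrial ribosomal protein genes (0.27 in both) were raised in the same 2 libraries, as were other protein-coding genes under 1000 bases (0.19 and 0.17), while those of 3000 bases or more were at -0.11 and -0.10. The part of transcript length in the members' values was not tested.

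**Figure D3:**
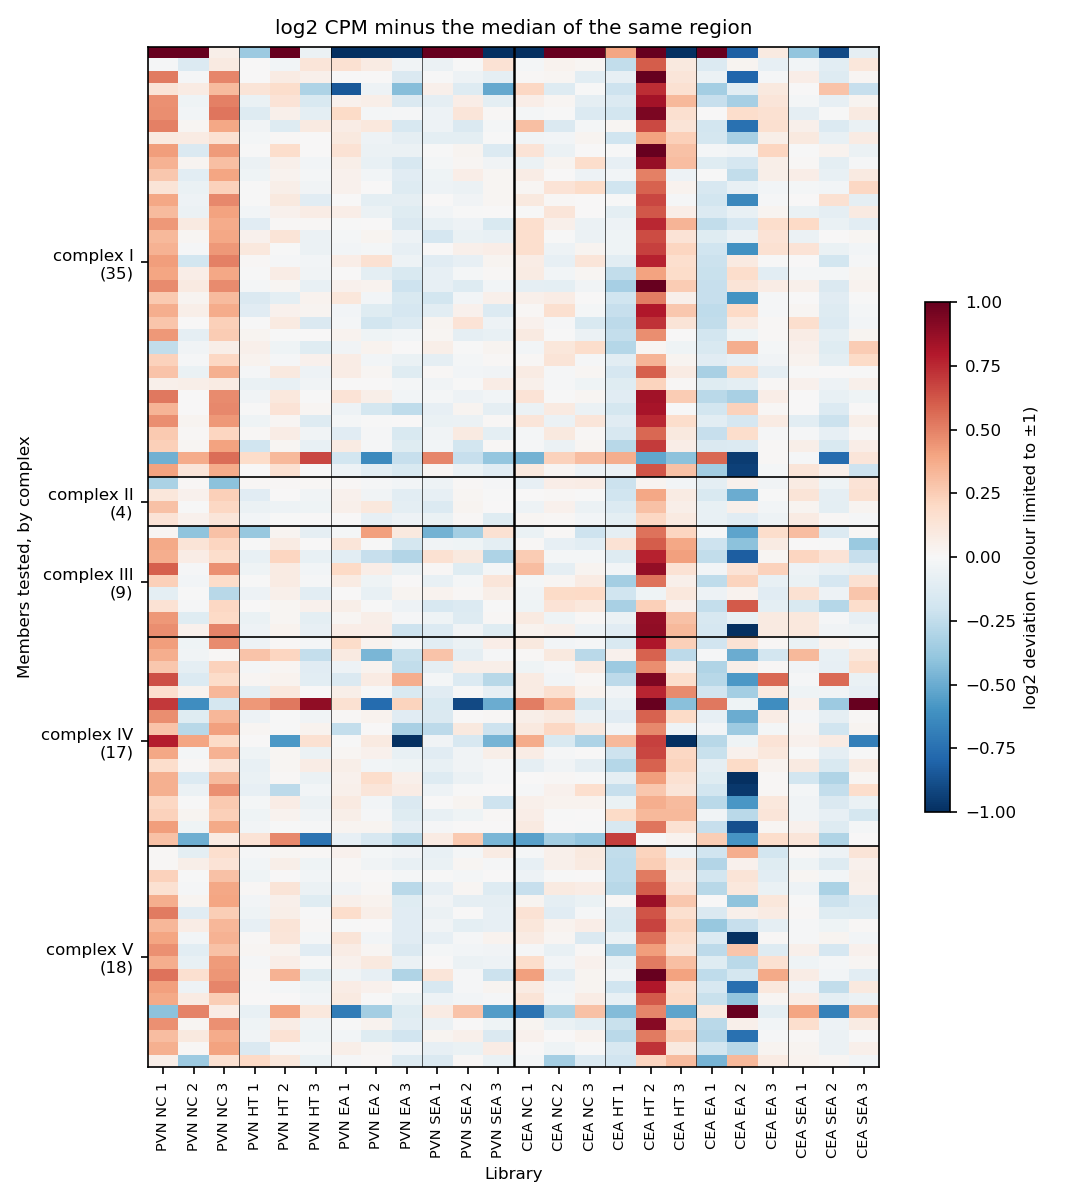
Each row is 1 of the 83 tested members, grouped by complex, and each column 1 of the 24 libraries, with the colour giving log2 CPM minus the median of the 12 libraries of the same region (25 of 1992 cells exceed the colour limit of 1). PVN NC 1, PVN NC 3 and CEA HT 2 are red through all complexes, and CEA EA 2 mixes lower and higher members.

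Among the operated PVN groups the members' medians lay near 0. For EA against HT, edgeR called 0 members (0.0961% of all genes), DESeq2 0 (0.547%), and an unadjusted p under 0.05 was reached by 2 higher and 6 lower members, beside 2.10% and 3.57% of all genes. The median was -0.02. For SEA against HT, edgeR called 0 members (0% of all genes), DESeq2 0 (0.108%), and 0 higher and 1 lower member passed the unadjusted threshold, beside 2.41% and 1.97%, with a median of -0.04. For EA against SEA, the effect of current over needling alone, both tools called 0 members (0% and 0.139% of all genes), and 1 higher and 1 lower passed the unadjusted threshold, beside 2.20% and 3%, with a median of 0.02. Summed over the members, HT had 12496 ± 363 CPM (SD, n = 3), EA 12412 ± 533 and SEA 12285 ± 210.

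The members with the smallest p in these comparisons included rows at low counts. Ndufa1, an essential accessory subunit encoded on the X chromosome, had log2 fold changes of -4.13 ± 1.18 for EA against HT and -4.14 ± 1.03 for EA against SEA (adjusted p = 0.55 and 0.92, edgeR). Its counts ran from 9 to 404 per library, at 1.38, 26.0 and 1.73 CPM in PVN HT, 0.64, 0.47 and 0.53 in PVN EA and 6.29, 22.3 and 0.67 in PVN SEA. The spread within HT and within SEA was larger than 10-fold, and single libraries decided the values. Without PVN HT 2 the value for EA against HT was -1.50 (adjusted p = 0.54, edgeR). For EA against SEA it was -2.66 without PVN SEA 2 (adjusted p = 0.998, edgeR) and -4.70 without PVN SEA 3, where this 1 member passed the threshold (adjusted p = 0.027, edgeR). Cox6a2, at 0.52 to 2.09 CPM over the 2 groups, had the smallest p for SEA against HT (-1.22 ± 0.32, adjusted p = 0.98, edgeR). Cox7b, subunit 7b of complex IV, had 91.0, 80.3 and 94.2 CPM in PVN HT and 99.3, 105 and 101 in PVN EA. Its log2 fold change was 0.20 ± 0.07 (adjusted p = 0.70, edgeR). The remaining smallest p-values belonged to the Ndufv3 row on chromosome 13 for EA against HT (-0.80), to Ndufb3 (-0.14) and Uqcrfs1 (-0.12) for SEA against HT, and to Cox7a2l2 (0.16) and Uqcr10 (0.37) for EA against SEA, none of them called. Uqcr10 had 0.24 without PVN EA 2 and 0.58 without PVN SEA 3.

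In the CEA, HT against NC gave 0 members by edgeR (0% of all genes) and 0 by DESeq2 (0.159%), with 2 higher and 0 lower at an unadjusted p under 0.05, beside 2.35% and 1.41% of all genes. The median log2 fold change of the members was 0.24 against 0.02 over all genes, and 76 of 83 were positive. The 2 members were Uqcr11 (0.47 ± 0.16, adjusted p = 0.92, edgeR), at 394, 370 and 364 CPM in NC and 432, 596 and 511 in HT, and Ndufa4l2 (0.74 ± 0.26, adjusted p = 0.92, edgeR), at 4.50, 5.21 and 5.04 CPM in NC and 10.8, 6.60 and 6.79 in HT. Without CEA HT 1 the value of Ndufa4l2 was 0.46. Atp5f1e had the next smallest p (0.49 ± 0.22, with 0.22 without CEA HT 2 and 0.65 without CEA HT 1). The median over the members was 0.01 without CEA HT 2 and 0.39 without CEA HT 1. Astrocyte markers summed to 2353 to 3035 CPM in CEA NC and 2071 to 2145 in CEA HT, with 2 of 5 lower at the unadjusted threshold, and their part was not tested.

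CEA HT 2 had the highest summed member level of all libraries, 21631 CPM, while CEA HT 1 had 13347 and CEA HT 3 had 16692, and the 3 NC libraries 15058 to 15106. In CEA HT 2 the members lay 0.61 above the median of the 12 CEA libraries (80 of 83 above), in CEA HT 1 they lay at -0.14 (9 above) and in CEA HT 3 at 0.15 (70 above). Cytosolic ribosomal protein genes were raised by 0.77 in CEA HT 2, mitochondrial ribosomal protein genes by 0.55 and other protein-coding genes under 1000 bases by 0.31, whereas those of 3000 bases or more were at -0.19 and the mitochondrial mRNAs at -0.27.

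**Figure D4:**
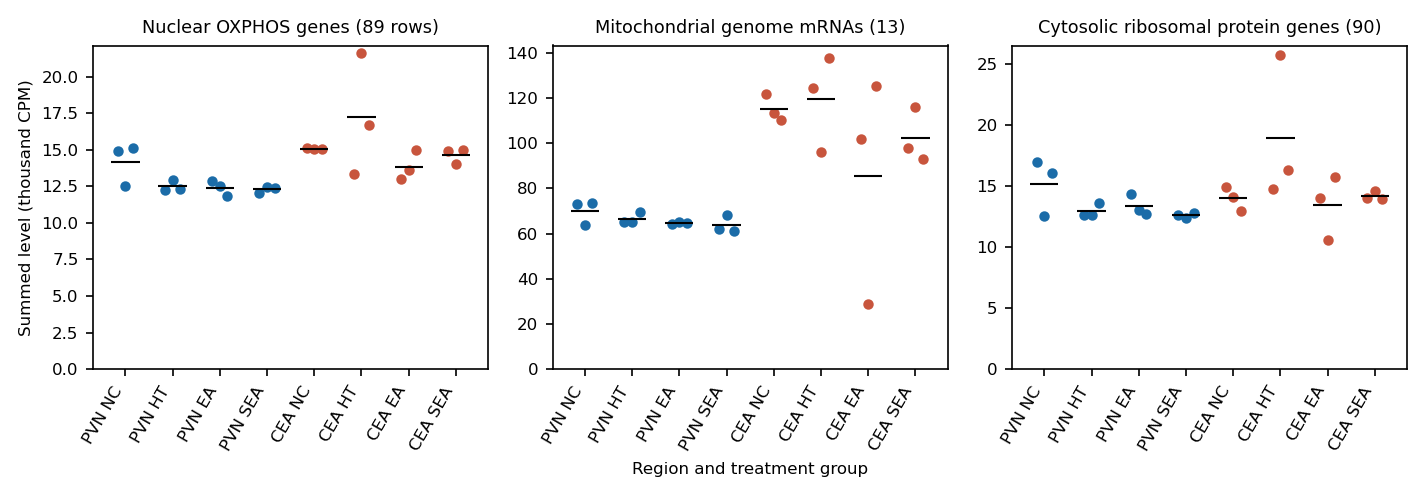
Summed level, in units of 1000 CPM, of the 89 member rows, the 13 mitochondrial mRNAs and 90 cytosolic ribosomal protein rows, with 1 point per library, a bar for each group mean and axes from 0. PVN NC 1, PVN NC 3 and CEA HT 2 are high in the panels of members and ribosomal proteins, and CEA EA 2 is low in the mitochondrial panel.

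Against HT, both needled CEA groups had lower member medians, and these comparisons share the HT libraries. For EA against HT, edgeR called 0 members (0% of all genes), DESeq2 0 (0.0304%), and 5 members were lower and 0 higher at an unadjusted p under 0.05, beside 1.37% and 1.82% of all genes. The median was -0.35 (77 of 83 negative), with -0.09 without CEA HT 2 and -0.51 without CEA HT 1. For SEA against HT, edgeR called 0 members (0%), DESeq2 0 (0.0183%), and 4 were lower and 0 higher, beside 1.69% and 1.38% of all genes. The median was -0.29 (78 of 83 negative), with -0.04 without CEA HT 2 and -0.45 without CEA HT 1. EA against SEA had a median of -0.06, with 0 members called by either tool (0% and 0.0307%) and 0 at an unadjusted p under 0.05, beside 1.15% of all genes higher and 0.839% lower. Its smallest p-values were those of Uqcrb on chromosome 7 (0.21), Atp5mc1 (-0.20) and Ndufa1 (1.11, and 0.17 without CEA EA 1).

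Uqcr11 was among the 3 smallest p-values in both comparisons with HT. It lay at 432 to 596 CPM in CEA HT. In CEA EA it lay at 339, 295 and 414 CPM (-0.57 ± 0.20, adjusted p = 0.93, edgeR). In CEA SEA it lay at 393, 390 and 302 CPM (-0.54 ± 0.18, adjusted p = 0.96, edgeR). Cox8a lay at 468, 513 and 515 CPM in HT and at 400, 388 and 363 in SEA (-0.42 ± 0.13, adjusted p = 0.96, edgeR). Atp5f1e lay at 156, 279 and 186 CPM in HT and at 154, 133 and 140 in SEA (-0.58 ± 0.22, adjusted p = 0.96, edgeR). The value of Atp5f1e was -0.30 without CEA HT 2 and -0.73 without CEA HT 1. The other members named by the smallest p for EA against HT, the Ndufv3 row on chromosome 20 (-0.71) and the Uqcrb row on chromosome 1 (-0.72), had their lowest value of all libraries in CEA EA 2, at 47.2 and 39.7 CPM.

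CEA EA 2 differed from the other libraries within the members. Its median deviation was -0.12, yet single members ranged from -1.47 for Uqcrq (87.4 CPM, where the other CEA libraries had 215 to 447) to 1.0 for Atp5pb, and complex IV was at -0.37. The mitochondrial mRNAs were at -1.94 in this library, the lowest value of the 24. These members were singled out with their values known. The paper left a set of the CEA EA group out of its co-expression network for very large differences, and its methods do not number that set. CEA EA 2 was kept in the main fits here.

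The 2 regions' responses to hepatectomy were compared by the interaction of region and treatment. For HT against NC, 0 members differed between CEA and PVN by edgeR (0% of all genes) or DESeq2 (0.00575%), and at an unadjusted p under 0.05 the change was more positive in CEA for 19 members and less for 0, beside 4.84% and 7.24% of all genes. The median difference was 0.45, and Uqcr11 (0.67 ± 0.17), Cox8a (0.44 ± 0.13) and Atp5f1e (0.77 ± 0.26) had the smallest p (adjusted p = 0.41 for each, edgeR). This contrast holds PVN NC 1, PVN NC 3 and CEA HT 2 on the sides that raise it. Without CEA HT 2 the median was 0.24 and the value of Atp5f1e 0.49. Without CEA HT 1 they were 0.59 and 0.93. For EA against HT, edgeR called 0 members (0%) and DESeq2 0 (0.278%). At an unadjusted p under 0.05 by edgeR, 0 were more positive and 6 more negative in CEA, beside 2.94% and 1.58% of all genes. The median was -0.35, with -0.08 without CEA HT 2 and -0.50 without CEA HT 1. The smallest p-values of this comparison were those of Uqcr11 (-0.54), Uqcr10 (-0.68) and Atp5mg (-0.50). Atp5mg had -0.29 without CEA HT 2 and -0.65 without CEA HT 1.

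**Figure D5:**
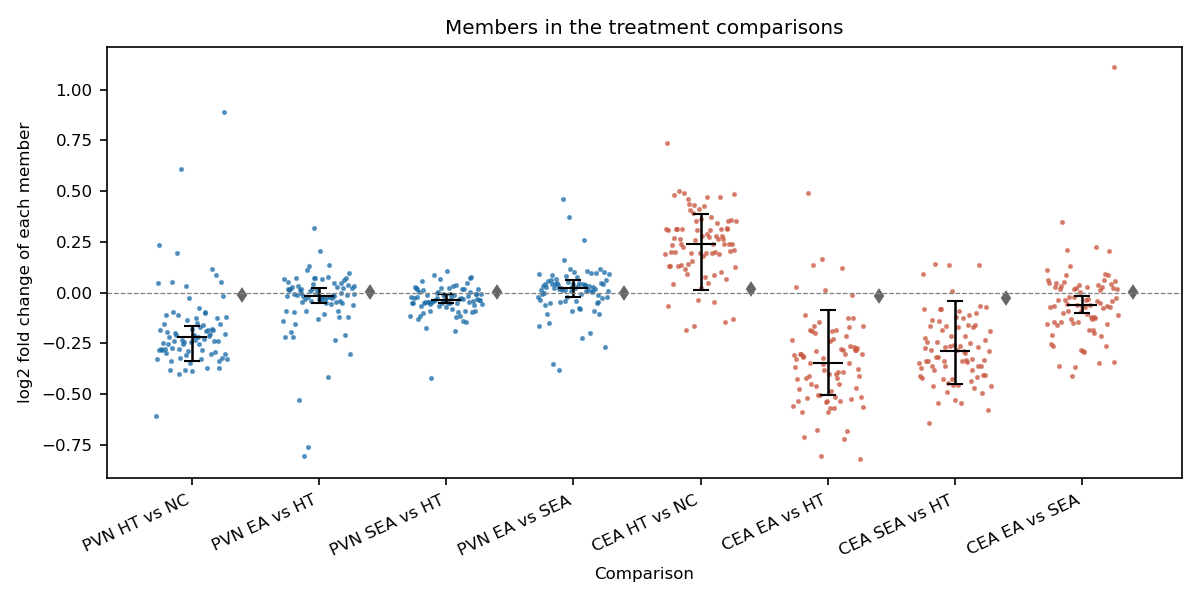
Log2 fold change of each tested member (points, PVN blue, CEA red) in the 8 treatment comparisons, with the median of the members as a bar, its range when 1 library is left out as the whisker and the median of all genes as a grey diamond. Medians are near 0 among operated PVN groups, -0.22 for PVN HT against NC and 0.24, -0.35 and -0.29 for the CEA comparisons that hold HT, and 4 points beyond 1.2 on either side are not drawn.

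Several rows may share reads with near-identical copies. Of the 89 rows, 6 have no intron in the table, and 4 symbols (Ndufa10l1, Ndufv3, Uqcrb and Cox6b1) have 2 rows each. The intronless Uqcrb row on chromosome 1 held more counts than the spliced gene on chromosome 7 (26564 against 16075), and RefSeq lists it as the pseudogene Uqcrb-ps1. RefSeq also lists the intronless Cox6b1 row on chromosome 2, with 8718 counts against 67147 on chromosome 1, as the pseudogene Cox6b1-ps1. How reads with several matches were counted is not given in the sources used here, so the split between such rows is uncertain. Atp5pb, the stalk subunit b, held 2277 counts over all libraries where the other 3 stalk subunits held 76461 to 88853, and its low level and that of Ndufa1 are given as the table counts them.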

How the data were processed

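Libraries were strand-specific mRNA libraries, 3 per group. The authors aligned reads with HISAT2 and deposited raw counts per gene from featureCounts, and versions are not given in the sources used here. The methods name mRatBN7.2, the labels' processing notes name a human build, and a gene end of 282724300 on chromosome 1 stands in the table, so no coordinates of the table are printed. A stray second header line (1 line), which swaps the names of CEA EA 2 and 3, was left out, and the first header was used.

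The members and gene lists were chosen with earlier results of these data known. Counts were tested on the whole table with edgeR 4.0.16 in R 4.3.3 (filterByExpr, TMM, quasi-likelihood F test, two-sided, Benjamini-Hochberg, called at 0.05). Pairs of groups were fitted alone (4 residual degrees of freedom) and the regions over all 24 libraries (16). The study tested pairs with DESeq2 at an unadjusted p under 0.05, run here with DESeq2 1.42.0 as an alternative. CPM values use TMM library sizes, and log2 CPM a prior count of 2. Both tests were run on simulated counts with known fold changes as a check of the code, which gives no measure of error in these data. Totals of 13152772 to 18607032 counts make 1 count worth 0.0537 to 0.0760 CPM, which limits only the lowest members.

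Named genes followed a fixed rule: up to 3 called members per complex and direction between regions, the 3 smallest p elsewhere, paralogous isoforms, the 3 highest levels per length and members that failed the filter. Any other gene was named with its values known. The methods say that brain samples were of different animals in 1 batch but describe fewer rats than libraries, and no label names an animal. The fits treat all libraries as separate, and p-values measure the spread between them. Libraries share replicate numbers across groups. Deviations from group means of same-numbered libraries correlated by over 0.1 in all 3 pairs for CEA HT against NC (0.18 to 0.29), where the block changed no call, and for the NC libraries of CEA and PVN (0.13 to 0.29), whose fit with the block was added after seeing the data. No other comparison reached this in all its pairs. Alternatives were RLE, library totals, mitochondrial rows left out, no filter, DESeq2, a replicate block, other library sets and leaving out each library. The sets without doubtful libraries and of operated rats were added after seeing the data.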

Additional observations from a re-analysis of the deposited data

How the results depend on the processing

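Between the regions, members called higher and lower in CEA numbered 36 and 1 (56.6% of all genes called in either direction), 40 and 0 with RLE scaling (28.8% of all genes higher and 27.7% lower), 24 and 7 with library totals (18.8% and 41.3%), 37 and 1 without mitochondrial rows (56.7% in either direction), 40 and 0 without the filter (37.7%), 43 and 0 with DESeq2 (48.2%), and 4 and 1 in the NC libraries alone (26.4%), that is 5 in all. All 36 were among those called higher by DESeq2, in operated rats and without the 4 libraries that stand apart, and 24 of 36 with library totals. Leaving out 1 library gave 34 called members without CEA EA 3 (54.4% of all genes) to 48 without CEA HT 1 (57.3%). Values that changed sign were those of Atp5mc2 (-0.070 with library totals and -0.10 in NC libraries alone), Atp5mc3 (-0.014 and -0.10), Sdha (0.066 in NC libraries alone) and Cox7a2l (0.0026 in operated rats); the cause was not tested.

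Among treatments, the study's own rule (DESeq2, unadjusted p under 0.05) gave 18 members in PVN for HT against NC (8% of all genes), 6 for EA against HT (3.01%), 1 for SEA against HT (1.99%) and 4 for EA against SEA (2.68%). In CEA it gave 4 (2.92%), 12 (2.68%), 6 (2.36%) and 0 (1.39%). For the region differences it gave 26 for HT against NC (9.28% of all genes) and 9 for EA against HT (3.50%). Leaving out 1 library gave 0 to 52 members for PVN HT against NC, the 52 without PVN NC 2, and 0 to 1 for PVN EA against SEA, the 1 being Ndufa1. With the replicate number as a block, 36 members were called between the regions (36 higher and 0 lower), where Sdha was lost and 35 of the 36 higher rows were shared, and 0 in every treatment comparison. In the NC libraries of both regions with the block, 4 members were called, with a median of 0.01 and values of 0.077 for Sdha, -0.095 for Atp5mc2 and -0.087 for Atp5mc3. Outside that set and CEA HT against NC, same-numbered libraries were not treated as paired.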
